A study of Homo sapiens with 4 samples.

Results

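The microRNAs miR-10a, miR-10b, miR-196a and miR-196b come from hairpins that lie among the HOX genes, and their mature forms were followed here in PC-3, an established human prostate cancer cell line derived from a bone metastasis. They were picked by name, as every entry called miR-10a, miR-10b, miR-196a or miR-196b. The rule found 4 of the 1096 entries listed, all of them 5p arms: miR-10a-5p, miR-10b-5p, miR-196a-5p and miR-196b-5p. Small RNA was sequenced from 2 libraries of untreated PC-3 cells (controls 1 and 2) and 2 libraries of PC-3 cells given apelin, the peptide ligand of the receptor APJ, at 10 µg/mL for 24 h (apelin 1 and 2). All cells were kept in DMEM with fetal bovine serum. The design asks which miRNAs differ under apelin. Nothing states that the 2 libraries of a group were separate cultures, so every p-value speaks only for the spread among these 4 libraries, which may be technical.

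HOX genes code for transcription factors that set position along the body axis, and they sit in 4 clusters named HOXA to HOXD. The miR-10 genes lie near the paralogous genes HOXB4 and HOXD4. The miR-196 genes lie near the HOX genes numbered 9 and, in HOXA and HOXC, also 10. Both families are known to act on HOX transcripts, miR-196 by directing cleavage of HOXB8 mRNA and miR-10b by repressing HOXD10. In cancer miR-10b is best known for its link to invasion in breast tumour cells.

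A miRNA finds its targets mainly through its seed, bases 2 to 8 from the 5′ end. The mature sequences of miR-10a-5p, miR-196a-5p and miR-196b-5p are shown with the seed in capitals. They were taken from RefSeq (GRCh38.p14), as were those of let-7a-5p and miR-100-5p, abundant miRNAs that resemble the 2 families.
miR-10a-5p: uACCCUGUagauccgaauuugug
miR-100-5p: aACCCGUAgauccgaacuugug
miR-196a-5p: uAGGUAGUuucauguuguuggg
miR-196b-5p: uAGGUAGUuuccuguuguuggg
let-7a-5p: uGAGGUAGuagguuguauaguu

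miR-196a-5p and miR-196b-5p share their seed and differ by 1 substitution, A12C, with positions counted from the 5′ end of miR-196a-5p. Of the 452 catalogue names in the table with a RefSeq sequence, only these 2 had the seed AGGUAGU. The seed letters of miR-10a-5p, ACCCUGU, also occur once in the hairpin of MIR10B, shown further on. The let-7 seed is close to that of miR-196. The run AGGUAGU starts at base 2 of miR-196a-5p and at base 3 of let-7a-5p. miR-10a-5p and miR-100-5p have different seeds but share the 11 bases GUAGAUCCGAA, from base 7 of the first and base 6 of the second. miR-10b-5p is near-identical to miR-10a-5p. How reads that fit more than 1 of these miRNAs were counted was not given in the sources used here, so the split between miR-10a-5p and miR-10b-5p, and between miR-196a-5p and miR-196b-5p, carries that uncertainty.

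Each level can be placed at a HOX locus only as far as the hairpin is unique. The hairpin genes were located in GENCODE release 29 (GRCh38), whose coordinates equal those of RefSeq. The build behind the deposited counts was not given in the sources used here. MIR10A, the source of miR-10a-5p, lies in HOXB at chr17:48579838-48579947 on the minus strand. It falls inside an exon of HOXB4, in the untranslated part of its 1 transcript that spans the site, and in introns of 6 transcripts of HOXB3. MIR10B, the source of miR-10b-5p, lies in HOXD at chr2:176150303-176150412 on the plus strand, in an intron of HOXD3 and 810 bp before HOXD4. MIR196B, the source of miR-196b-5p, lies in HOXA at chr7:27169480-27169563 on the minus strand. It is exonic in 1 and intronic in 2 transcripts of HOXA9 and 1028 bp from HOXA10.

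miR-196a-5p has 2 sources. MIR196A1 lies in HOXB at chr17:48632490-48632559 on the minus strand, in an intron of the long HOXB7 model and 6.13 kb from HOXB9. MIR196A2 lies in HOXC at chr12:53991738-53991847 on the plus strand, in an intron of HOXC6 and between HOXC10 (1.46 kb away) and HOXC9 (3.05 kb away). The hairpins are shown with the mature miR-196a-5p in capitals, since both hold it whole. The hairpin of MIR10B follows, with the letters of the miR-10a-5p seed in capitals. Its longest run in common with the hairpin of MIR10A is the 15 bases UAUAUACCCUGUAGA, which contain that seed.
MIR196A1: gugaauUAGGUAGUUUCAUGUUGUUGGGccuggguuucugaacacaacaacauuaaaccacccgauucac
MIR196A2: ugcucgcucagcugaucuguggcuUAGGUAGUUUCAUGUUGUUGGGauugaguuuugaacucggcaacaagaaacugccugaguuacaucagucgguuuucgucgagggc
MIR10B: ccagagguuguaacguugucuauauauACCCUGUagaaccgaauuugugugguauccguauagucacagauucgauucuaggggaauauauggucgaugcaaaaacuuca

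A count of miR-196a-5p therefore cannot be assigned to HOXB or to HOXC, and no 3p arm that would tell these hairpins apart was listed. The other 3 members each have 1 hairpin gene. GENCODE places 3 further miRNA genes within the limits of the HOX clusters, MIR615 in HOXC (chr12:54033950-54034045, plus strand, in introns of HOXC4 and HOXC5), MIR3185 in HOXB and MIR7704 in HOXD. Of these, miR-615-3p is given below beside the members, and no entry named for MIR3185 or MIR7704 was listed. The HOX transcripts themselves were not analysed here.

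**Figure D1:**
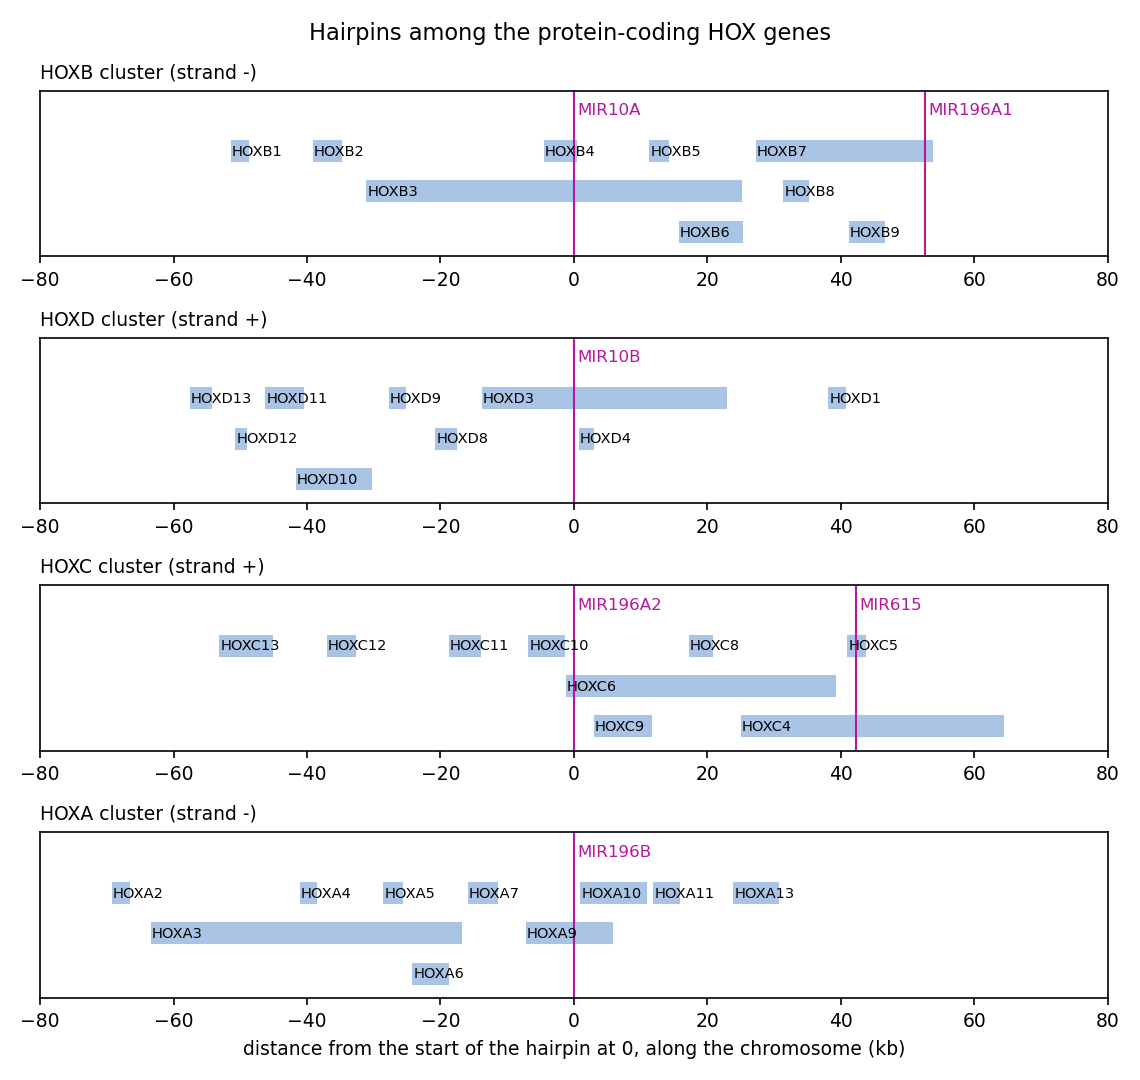
Map of the hairpins (vertical lines) among the protein-coding HOX genes (bars, from GENCODE release 29) in the 4 clusters. The horizontal axis is the distance in kb along the chromosome from the start of MIR10A, MIR10B, MIR196A2 or MIR196B. MIR10A and MIR196A1 share HOXB, MIR196A2 and MIR615 share HOXC, and MIR10B and MIR196B are alone in HOXD and HOXA in this view.

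The libraries held 5322429 to 6014838 counts each, so that 1 count was worth 0.166 to 0.188 TPM. TPM here is the count per 1000000 counts of the library, with no division by length. All 4 members are listed at 22 nt, although the RefSeq sequence of miR-10a-5p has 23 nt, so levels are compared with no correction for length. Of a list of 7 epithelial miRNAs 6 were listed, with a summed level of 8043 to 8386 TPM in controls and 7866 to 8246 TPM with apelin, most of it miR-200b-3p. Within the epithelial list miR-200c-3p stood at only 22.98 to 33.25 TPM, and miR-141-3p was not listed. The skin epithelial miR-203a-3p was at 0 in 3 libraries. Markers of blood, endothelium, stroma and muscle, and liver were low. The 3 listed blood miRNAs summed to 29.1 to 40.4 TPM over the libraries, and miR-126-3p of endothelium stood at 6.32 to 13.7 TPM. The 3 listed miRNAs of stroma and muscle summed to 1.00 to 3.38 TPM, and miR-122-5p of liver stood at 1.75 to 4.82 TPM. miR-9-5p of neurons stood at 297.8 to 399.2 TPM, while miR-124-3p, the other neuron marker looked for, was not listed. The luminal prostate miRNAs miR-148a-3p and miR-375-3p summed to 25.4 to 33.4 TPM.

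Together the 4 members made up 0.795% of control 1, 0.811% of control 2, 0.703% of apelin 1 and 0.684% of apelin 2 by counts. miR-10a-5p gave 61.6% to 65.2% of their counts, miR-10b-5p 25.2% to 29.3%, miR-196b-5p 8.28% to 10.4% and miR-196a-5p 0.232% to 0.429%. The HOXB and HOXD forms of miR-10 thus outweighed both miR-196 forms in every library.

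miR-10a-5p, from HOXB, was the most abundant member. It stood at 5079 TPM in control 1, 5289 TPM in control 2, 4332 TPM in apelin 1 and 4253 TPM in apelin 2. Both apelin libraries lay below both controls. Its mean over the libraries ranked 40 among the 516 catalogue entries. Its neighbours in that order were miR-27b-3p just above and miR-23b-3p just below, at means of 4760 and 4668 TPM, and both ranges overlapped with its own.

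miR-10b-5p, from HOXD, came next, at 2184 TPM in control 1, 2047 TPM in control 2, 2061 TPM in apelin 1 and 1847 TPM in apelin 2. The groups overlapped, since apelin 1 lay above control 2. It ranked 52 by its mean, between miR-30b-5p (2149 TPM) and miR-140-3p (1872 TPM), and neither stood apart from it beyond the range over libraries.

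miR-196b-5p, from HOXA, stood at 658.5 TPM in control 1, 739.0 TPM in control 2, 622.5 TPM in apelin 1 and 711.9 TPM in apelin 2. The groups overlapped here too, and the 2 libraries within a group differed by more than the group means did. It ranked 74 by its mean, between miR-4286 and miR-149-5p, whose ranges overlapped with its own.

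miR-196a-5p, from HOXB, HOXC or both, was the scarce member. The controls had 187 and 197 counts of it and the apelin libraries 87 and 145, which is 31.1, 34.8, 16.4 and 25.4 TPM for controls 1 and 2 and apelin 1 and 2. The apelin libraries lay below the controls and also differed from each other. The exact 95% Poisson interval, which covers counting error only, was 13.1 to 20.2 TPM in apelin 1 and 21.5 to 29.9 TPM in apelin 2. Copies made by PCR were not told apart by molecular identifiers, so reads are not independent molecules. In control 1 the interval was 26.8 to 35.9 TPM, which overlaps with that of apelin 2, and in control 2 it was 30.1 to 40.0 TPM, which does not. miR-196a-5p ranked 183 by its mean.

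The order of the members, miR-10a-5p over miR-10b-5p over miR-196b-5p over miR-196a-5p, was the same in all 4 libraries. No neighbours in it overlapped: the lowest miR-10a-5p level (4253 TPM) was above the highest miR-10b-5p level (2184 TPM), the lowest miR-10b-5p level (1847 TPM) was above the highest miR-196b-5p level (739.0 TPM), and the lowest miR-196b-5p level (622.5 TPM) was above the highest miR-196a-5p level (34.8 TPM). miR-615-3p, the other HOXC product, stood at 412.0 TPM in control 1, 330.9 TPM in control 2, 340.5 TPM in apelin 1 and 263.6 TPM in apelin 2, with a listed length of 21 nt (22 nt in RefSeq). Its range lay between those of miR-196b-5p and miR-196a-5p. By cluster, the miRNA with a unique source was highest for HOXB (miR-10a-5p), then HOXD (miR-10b-5p), HOXA (miR-196b-5p) and HOXC (miR-615-3p). The whole of miR-196a-5p, whichever cluster it came from, was too small to change that order. The order is one of read levels of different mature sequences, and whether it follows the output of the clusters was not tested. The place of HOXB over HOXD also carries the uncertainty in the split of reads between miR-10a-5p and miR-10b-5p.

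**Figure D2:**
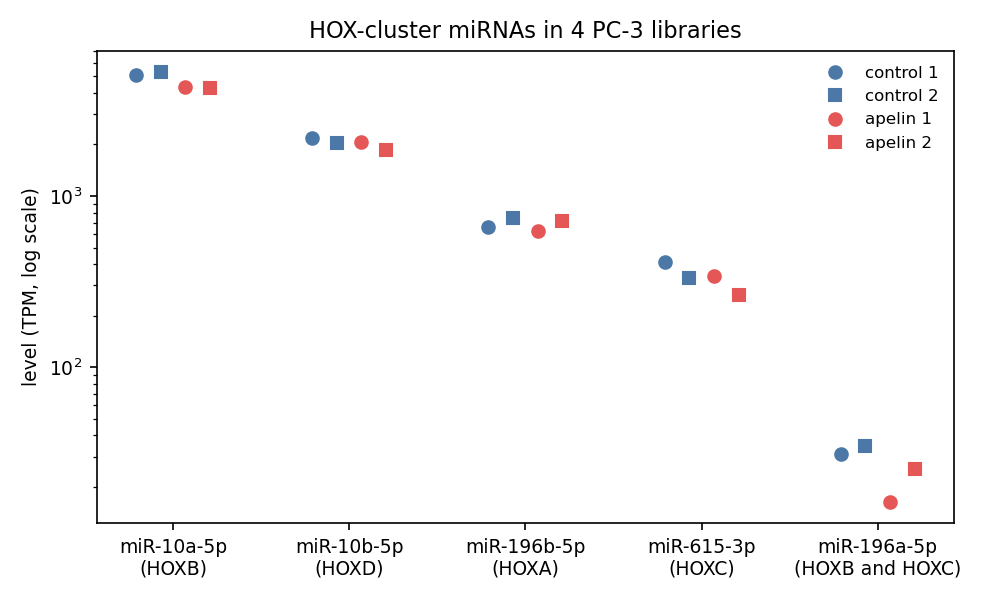
Level in TPM (log scale) of the 4 members and of miR-615-3p in each library, with controls in blue, apelin in red, circles for libraries numbered 1 and squares for those numbered 2. The 5 miRNAs form separate bands, from 4253 to 5289 TPM for miR-10a-5p down to 16.4 to 34.8 TPM for miR-196a-5p.

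The balance of the miR-10 forms favoured the HOXB product throughout. Controls 1 and 2 had 2.33 and 2.58 counts of miR-10a-5p for each of miR-10b-5p, and apelin 1 and 2 had 2.10 and 2.30. As a share of both, miR-10a-5p was 69.9% (95% Wilson interval 69.5% to 70.4%) in control 1 and 72.1% (71.7% to 72.5%) in control 2. It was 67.8% (67.3% to 68.3%) in apelin 1 and 69.7% (69.2% to 70.2%) in apelin 2. The apelin ratios lay below the control ratios, but only narrowly, and the intervals of control 1 and apelin 2 overlapped. The log2 ratio averaged 1.29 ± 0.11 (SD, n = 2) over controls against 1.14 ± 0.093 (SD, n = 2) over apelin libraries. The difference was -0.16 (exact permutation test, two-sided, p = 0.333). With 2 against 2 libraries no p under 0.333 can be reached. Without control 2 the difference was -0.080, and without apelin 1 it was -0.090.

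The miR-196 forms were far more uneven. There were 21.2 counts of miR-196b-5p for each of miR-196a-5p in each control, 38.1 in apelin 1 and 28.0 in apelin 2. The ratio was higher in both apelin libraries than in both controls. The log2 ratio averaged 4.41 ± 0.0030 (SD, n = 2) over controls against 5.03 ± 0.31 (SD, n = 2) over apelin libraries, a difference of 0.62 (exact permutation test, two-sided, p = 0.333). This ratio was looked at after the counts had been seen. Its counting interval in apelin 2, 23.7 to 33.0, overlapped with that of control 1, 18.3 to 24.5, while in apelin 1 it was 30.8 to 47.1. Without apelin 1 the difference was 0.40.

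**Figure D3:**
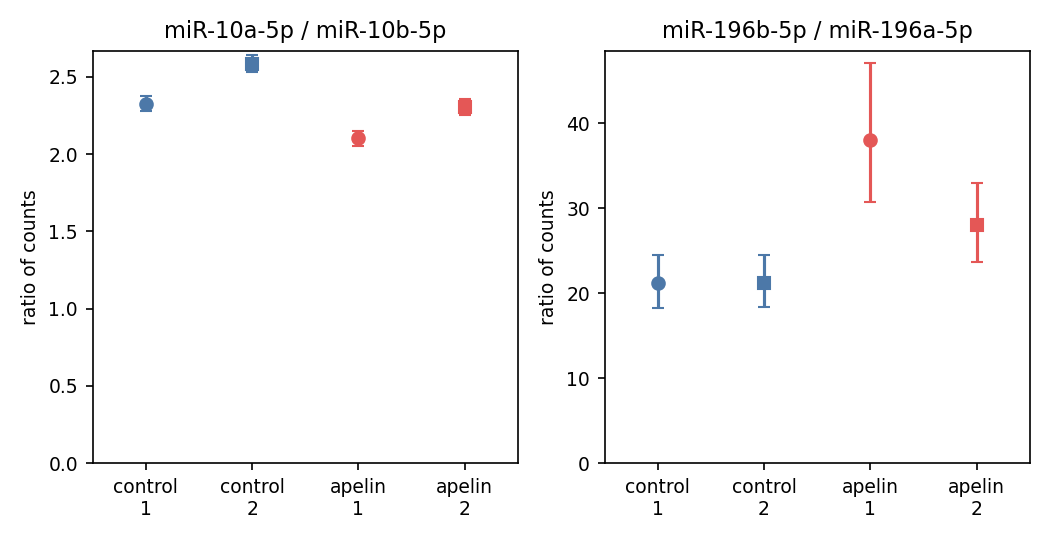
Ratio of counts of miR-10a-5p to miR-10b-5p (left) and of miR-196b-5p to miR-196a-5p (right) in each library, with bars for the 95% Wilson interval of counting error. The left ratios run from 2.10 to 2.58 and the right ones from 21.2 to 38.1, with controls in blue and apelin in red.

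No member passed the test between apelin and control. The edgeR quasi-likelihood test was run on the 263 entries with a mean of at least 10 TPM, which all 4 members reached, and Benjamini-Hochberg adjusted p-values were read at 0.05. It called 0% of these entries and 0 of the 4 members (15 entries had an unadjusted p under 0.05). All 4 fitted log2 fold changes were below 0, as were those of 50.6% of the entries tested. Their median was -0.17, against -0.018 over all tested entries. In 2 of 4 members, miR-10a-5p and miR-196a-5p, both apelin libraries lay below both controls. That held for 17.5% of the tested entries, and the opposite for 20.9%.

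Among the members miR-10a-5p came nearest to a call. Its level was 5184 ± 148 TPM (SD, n = 2) without apelin and 4292 ± 56 TPM (SD, n = 2) under it, a ratio of 0.828. The log2 fold change was -0.25 (SE 0.071, 95% interval -0.48 to -0.020, edgeR adjusted p = 0.627). Before adjustment edgeR ranked it 12 of 263 by p, at 0.041. Other edgeR settings on all 4 libraries gave it unadjusted p-values on both sides of 0.05. These ran from 0.029 with library totals to 0.293 with no filter on low values, with 0.057 in the robust fit. DESeq2 on the 263 entries gave -0.26 with an adjusted p = 0.000115, but it called 20.2% of all entries there. On the 207 catalogue entries above 0 in all libraries DESeq2 called 0% (26 at an unadjusted p under 0.05) and gave miR-10a-5p an adjusted p = 0.523. With quantile normalization in limma the log2 fold change was -0.050. The call of miR-10a-5p thus turned on the tool and on the entries fitted beside it.

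For miR-10b-5p, the form tied to invasion, the level was 2116 ± 97 TPM (SD, n = 2) without apelin and 1954 ± 151 TPM (SD, n = 2) under it. The log2 fold change was -0.098 (SE 0.11, 95% interval -0.46 to 0.26, edgeR adjusted p = 0.759), and it was -0.042 without control 1 and -0.19 without control 2. The interval leaves room for a level between 0.728 and 1.20 times that of controls.

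For miR-196b-5p the level was 698.8 ± 56.9 TPM (SD, n = 2) without apelin and 667.2 ± 63.3 TPM (SD, n = 2) under it. The log2 fold change was -0.041 (SE 0.15, 95% interval -0.54 to 0.46, edgeR adjusted p = 0.923). Its sign rested on 1 library, since it was 0.076 without apelin 1. It was -0.25 without apelin 2, -0.11 without control 1 and -0.0049 without control 2, and -0.26 with quantile normalization in limma.

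For miR-196a-5p the level was 32.9 ± 2.6 TPM (SD, n = 2) without apelin and 20.9 ± 6.4 TPM (SD, n = 2) under it. It had the fitted value farthest from 0 of the 4, with a log2 fold change of -0.62, and also the widest interval (SE 0.36, 95% interval -1.78 to 0.54, edgeR adjusted p = 0.627). The value was -0.32 without apelin 1 and -1.09 without apelin 2, neither of them past the threshold (edgeR adjusted p = 0.465 and 0.388). Neither a fall to 0.290 of the control level nor a rise to 1.45 times it lies outside the interval.

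**Figure D4:**
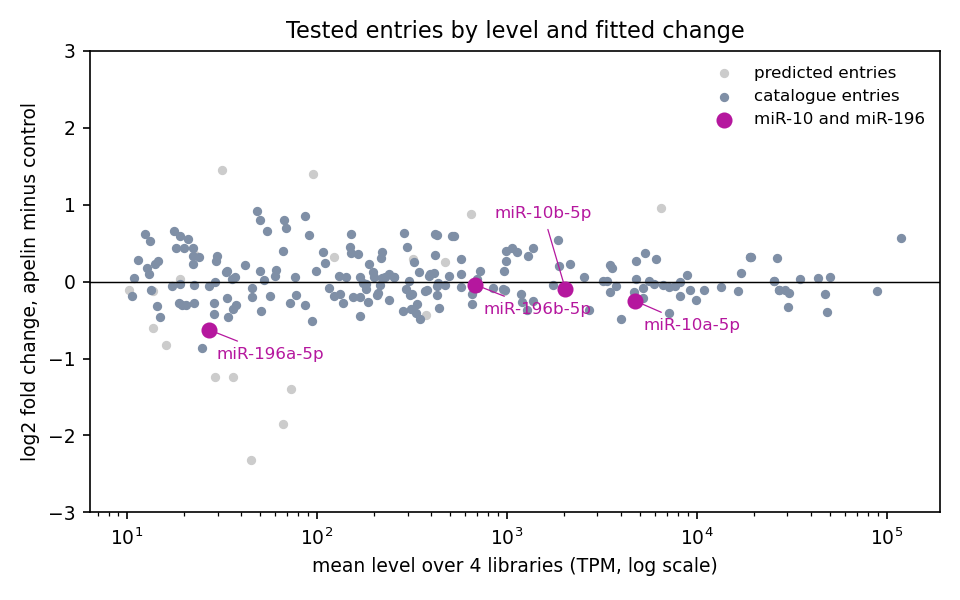
Log2 fold change (apelin minus control, edgeR) against the mean level in TPM (log scale) for the tested entries, with the 4 members in magenta, other catalogue entries in blue-grey and predicted ones in light grey. The members lie at -0.62 to -0.041, and 35 of the 263 entries lie beyond the axis limits of -3 and 3. Within these limits miR-196a-5p (-0.62) lies near the lower edge of the catalogue entries of like level. Of those, miR-628-5p (-0.86) lies below it and miR-2110 (-0.46) above it. The other members lie among the catalogue entries of like level.

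Summed over the members, the level was 7953 TPM in control 1, 8110 TPM in control 2, 7031 TPM in apelin 1 and 6837 TPM in apelin 2. Both apelin libraries were below both controls. The means were 8031 ± 111 TPM (SD, n = 2) and 6934 ± 137 TPM (SD, n = 2), a difference of -1097 TPM (exact permutation test, two-sided, p = 0.333). Most of this was miR-10a-5p, for without it the difference was -205 TPM.

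Relatives by locus or sequence gave no call either. The log2 fold change was -0.29 for miR-615-3p of HOXC (SE 0.23, edgeR adjusted p = 0.664), and apelin 1 lay above control 2. It was -0.11 without control 1, and -0.48 without control 2. Of the relatives of miR-10 by sequence, miR-99, miR-100 and miR-125, 4 of 5 were listed and tested. edgeR called 0 of the 4, with 3 values below 0 and 1 above and a median of -0.14. miR-100-5p, which shares 11 bases with miR-10a-5p, had -0.12 (SE 0.087), and miR-99a-5p had 0.061 (SE 0.13). miR-125a-5p had -0.34 (SE 0.23) and miR-125b-5p had -0.16 (SE 0.14). The likeness of miR-125b-5p to miR-10a-5p is slight, since their longest shared run is 5 bases, ACCCU. It starts at base 2 of miR-10a-5p and at base 9 of miR-125b-5p. Of 9 let-7 entries, whose seed resembles that of miR-196, edgeR called 0, with 8 values below 0 and 1 above. Their median was -0.23. Of all tested entries 50.6% had values below 0. Before adjustment edgeR ranked let-7a-5p 5 and let-7d-5p 9 of 263 by p, both ahead of miR-10a-5p at 12. Their log2 fold changes were -0.39 (interval -0.55 to -0.24) and -0.37 (interval -0.67 to -0.067). The intervals of all other let-7 entries included 0.

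**Figure D5:**
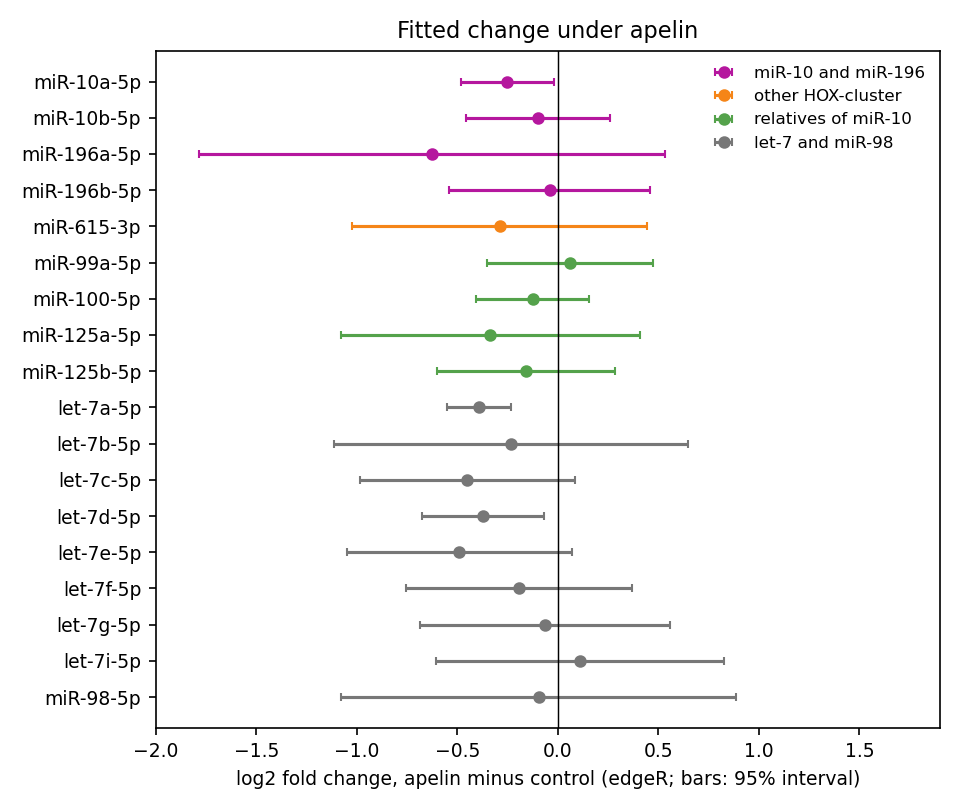
Log2 fold change (apelin minus control) with its 95% interval from edgeR for the 4 members (magenta), miR-615-3p (orange), the relatives of miR-10 (green) and the let-7 entries (grey). Among the members the interval of miR-10a-5p, -0.48 to -0.020, lies below 0 before adjustment in this fit, and the other 3 include 0. The intervals of let-7a-5p and let-7d-5p also lie below 0 before adjustment.

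The entries whose pattern was most like that of each member were found among the 207 tested catalogue entries above 0 in all libraries. The measure was the root mean square difference of library-centred, TMM-scaled log2 levels over the 4 libraries, members aside. For miR-10a-5p they were miR-3909 (0.040), miR-942-5p (0.042), and miR-128-1-3p (0.049) and miR-128-2-3p (0.051), which are copy names of 1 mature miRNA and share reads. The median over all compared entries was 0.22. miR-128-1-3p, for example, stood at 1522 and 1486 TPM in the controls and 1212 and 1277 TPM with apelin, lower in both apelin libraries as miR-10a-5p was. For miR-10b-5p the nearest was miR-30d-5p (0.040), at 32204, 32148, 30405 and 27184 TPM in controls 1 and 2 and apelin 1 and 2. For miR-196b-5p it was miR-497-5p (0.053). For miR-196a-5p even the nearest, miR-1304-3p, was 0.19 away, and its levels of 22.9, 22.6, 15.0 and 21.2 TPM in the same order were again lowest in apelin 1. With 4 libraries many entries can look alike, so these are descriptions and carry no test.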

How the data were processed

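Per the labels' protocols, libraries were made by adaptor ligation and PCR, with size selection on a gel. Per the submitters' processing notes, Trimmomatic 0.30 and DESeq2 were used. Which aligner, catalogue and build were used was not given in the sources used here. Whole-number read counts per miRNA and library stand in the 1 table that the authors deposited. The deposited TPM values are those counts per 1000000 of the library total, to within 0.151.

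Groups were compared with edgeR (quasi-likelihood test) on counts (TMM scaling, apelin minus control, mean of at least 10 TPM, Benjamini-Hochberg over the 263 entries kept, 213 of them catalogue names). SEs came from the test, as the fold change in log2 divided by the root of F. Ratios and sums used exact permutation tests. A count of 0 allows up to 3 counts, or 0.499 to 0.564 TPM. No 3p arm was among the members, so the arm-ratio test was not run. The scripts were tested on simulated counts. Alternatives were DESeq2, limma on log2(TPM + 1) or log2(TPM + 0.1), other scalings and filters, a replicate block and leaving out each library. The named miRNAs were the members, set lists of relatives, level neighbours and the nearest patterns. Members and lists were chosen with earlier results of these data known. Versions were R 4.3.3, edgeR 4.0.16, limma 3.58.1, DESeq2 1.42.0, Python 3.11.15, scipy 1.17.1 and pandas 2.3.3.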

Additional observations from a re-analysis of the deposited data

How the results depend on the processing

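Of the 4 members, edgeR called 0, and DESeq2 called 1 (miR-10a-5p). The other 17 alternatives also called 0. Over all entries the count was 0 in the main edgeR fit. It was 53 with DESeq2 (30 of them at 0 in some library). In edgeR with no filter on low values it was 52 (51 of them at 0 in some library). It was 5 with limma on log2(TPM + 0.1), all at 0 in some library. It was 4 each with limma on log2(TPM + 1), with quantile normalization and in edgeR with a minimum of 100 TPM, again all at 0 in some library. Leaving out a library gave 0 to 19. The log2 fold changes of miR-10a-5p, miR-10b-5p, miR-196a-5p and miR-615-3p stayed below 0 in every alternative run (-0.34 to -0.050, -0.19 to -0.042, -1.09 to -0.32 and -0.48 to -0.11). miR-196b-5p turned to 0.076 without apelin 1 and was below 0 in the other 17. The cause of this change of sign was not tested. The ratio differences kept their sign in all 7 alternatives each, as did the sum. For each, both apelin libraries lay on the same side of both controls, so leaving out a library could not change the sign. For the ratios, deposited TPM and the mean of same-numbered differences restate the main value. The numbers of the libraries are not stated to pair them, and deviations from the group means in same-numbered libraries had a correlation of 0.314 across 207 miRNAs. With a replicate block edgeR called 0 of 263 entries, and miR-10a-5p had a log2 fold change of -0.25 (edgeR adjusted p = 0.261). Summing both arms or keeping 5p arms alone was not run as a separate setting, since the members are all 5p arms. With 2 libraries a group and 87 to 197 counts, miR-196a-5p is the member with the fewest counts. Its counting intervals in the apelin libraries did not overlap, so these libraries differed by more than counting error.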
